A study of Mus musculus with 6 samples.

Results

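The 10 genes described here are the Notch receptors Notch1, Notch2, Notch3 and Notch4, the ligands Jag1, Jag2 and Dll1, and the targets Hes1, Hey1 and Dtx1. They were taken by symbol from the 46517 genes of a mouse RNA-seq study of hair germ stem cells, and all 10 were found and had enough reads to be tested. The hair germ is the small cluster of epithelial stem cells at the base of the resting hair follicle, and it is the first part of the follicle to divide when a new hair is made. Cells came from back skin of mice aged 60 days, taken 3 days after the hair had been pulled out to start a new hair cycle, and they were sorted by flow cytometry on YFP, P-cadherin, CD34, Sca-1 and integrin b1.

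Each of the 3 groups held 2 libraries. All mice carried Sox9-CreER, an inducible Cre recombinase driven by Sox9, and R26-lox-stop-lox-YFP, a reporter that marks cells in which Cre has acted. The wild type group (WT) carried only these alleles. The group LEF1cKO also carried Lef1fl/fl, a conditional allele of Lef1. The group LEF1_TCF7dKO, called the double knockout here, carried Lef1fl/fl and also Tcf7-/-, an allele present in every cell of the body and not only in Cre-marked cells. Both genes encode transcription factors that carry beta-catenin, the effector of the Wnt pathway, to DNA. The labels give no group with loss of Tcf7 alone, so loss of Tcf7 could be compared only on top of loss of Lef1. The labels do not say that libraries came from separate animals, so the p-values rest on the spread between 2 libraries a group, and in WT and the double knockout that spread may be technical only. The 2 LEF1cKO libraries differed in sex-linked transcripts (values below), so they did not hold the same animals.

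Notch receptors are cut and carried to the cell surface, where they bind Jagged or Delta-like ligands on a neighbouring cell. Binding lets ADAM proteases and then the gamma-secretase complex release the intracellular part of the receptor, which enters the nucleus and joins RBPJ and Mastermind proteins to switch on genes such as Hes1 and Hey1. In skin, Notch signalling is known for driving keratinocytes out of the basal layer towards terminal differentiation and for keeping hair follicle cells in their fate.

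The sequences before the RefSeq starts of Notch1, Notch2 and Notch3 are shown first, because these 3 receptors rose in the double knockout (the fourth, Notch4, did not pass the test). The RefSeq promoter table for GRCm38.p6 held 8 of the 10 genes, without Hes1 and Hey1. The windows cover the 250 bases before the start that RefSeq annotates, 5′ to 3′ in the direction of the gene, and capitals mark GC boxes, the letters GGGCGG on either strand. The windows lie at chr2:26503823-26504072 on the minus strand for Notch1, chr3:98013288-98013537 on the plus strand for Notch2 and chr17:32166891-32167140 on the minus strand for Notch3. The Notch1 window lies within the longer GENCODE span of the gene given further on, and therefore not at the start of that span.
Notch1: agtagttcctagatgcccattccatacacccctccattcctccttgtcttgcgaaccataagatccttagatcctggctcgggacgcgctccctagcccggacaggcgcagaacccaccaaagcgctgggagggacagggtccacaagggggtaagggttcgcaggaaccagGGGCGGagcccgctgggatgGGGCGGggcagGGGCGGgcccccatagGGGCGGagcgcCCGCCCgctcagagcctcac
Notch2: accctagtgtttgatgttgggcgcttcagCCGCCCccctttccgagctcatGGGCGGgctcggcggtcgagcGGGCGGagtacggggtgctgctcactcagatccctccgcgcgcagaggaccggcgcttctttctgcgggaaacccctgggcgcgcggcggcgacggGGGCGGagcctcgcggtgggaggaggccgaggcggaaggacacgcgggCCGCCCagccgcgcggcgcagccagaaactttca
Notch3: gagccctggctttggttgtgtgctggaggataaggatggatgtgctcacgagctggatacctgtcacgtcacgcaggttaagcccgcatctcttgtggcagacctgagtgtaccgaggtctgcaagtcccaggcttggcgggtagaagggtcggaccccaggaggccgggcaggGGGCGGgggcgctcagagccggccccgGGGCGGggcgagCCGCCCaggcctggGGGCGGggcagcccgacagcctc
GC boxes were searched for after the sequences had been seen. They were present in the windows of 5 of the 8 genes, with 5 matches each for Notch1, Notch2 and Jag2, 4 for Notch3 and 3 for Dtx1, where 2 of the Jag2 matches and 2 of the Dtx1 matches overlap. In GENCODE the Jag2 and Dtx1 windows are exon of the same gene over all 250 bases, so they are not upstream sequence there. Exons of the same gene also cover 124 bases of the Jag1 window and 153 of the Dll1 window at chr17:15375824-15376073. Of 32851 mouse promoter windows of the same length, 32.7% held the motif. The core of the RBPJ site, TGGGAA on either strand, was in the windows of 0 of the 8 genes and in 21.6% of all windows. The core of the LEF/TCF site, TCAAAG on either strand, was likewise in 0 of the 8 and in 13.8% of all windows. These counts describe the letters of these windows only. The 3 printed windows were rich in G and C, at 66.0% for Notch1, 72.0% for Notch2 and 68.8% for Notch3, against a median of 52.4% over all windows.

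The libraries held 40480694 to 63220022 expected counts, and 14743 to 16032 genes reached 1 TPM (a transcript level scaled for gene length and sequencing depth). The targeted gene Lef1 read 21.4 and 20.4 TPM in the 2 WT libraries, 13.5 and 8.37 in the 2 LEF1cKO libraries, and 9.22 and 9.42 in the 2 double knockout libraries. Tcf7 stood at 26.9 and 36.0, 29.3 and 27.8, and 13.7 and 18.0 TPM in the same order. Compared with WT, Lef1 fell in the double knockout (edgeR adjusted p = 0.0122) but did not pass the test in LEF1cKO (log2 fold change -0.92 ± 0.25 SE, adjusted p = 0.282). Lef1 in LEF1cKO did pass in DESeq2 (-0.92, adjusted p = 0.0388) and without LEF1cKO replicate 1 (-1.36, 0.0317). Its call in the double knockout was lost without either WT replicate (adjusted p = 0.0626 and 0.0581) or either double knockout replicate (0.0827 and 0.0558), with log2 fold changes of -1.32 to -1.21. The double knockout had less Tcf7 than WT, by a log2 fold change of -1.37 ± 0.21 (adjusted p = 0.00641). The labels give the sex of all samples as mixed, while Xist was at 0.66 TPM in LEF1cKO replicate 1 and at 309 or more in the other libraries, and the Y-linked Ddx3y was at 38.8 TPM in that library and at 0.10 or less elsewhere. Of 10 hair germ markers, 9 reached 1 TPM in every library, and their summed level ran from 10159 to 18959 TPM. Most of this sum was keratin. Krt5, Krt14 and Krt17 were at 4936, 3410 and 2342 TPM in WT replicate 1, and at 8258, 8368 and 1769 in double knockout replicate 2. Of the 9 hair germ markers tested in the double knockout against WT, 5 fell (Cdh3, Lhx2, Sox9, Lgr5 and Krt17) and 1 rose (Krt14). Among all tested genes, 19.6% fell and 18.0% rose.

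Libraries also differed in markers of other cells. The summed level of 10 suprabasal epidermis markers (keratinocytes that have left the basal layer) was 1646 and 1338 TPM in the WT libraries, 3297 and 3406 in those of LEF1cKO, and 13626 and 12937 in those of the double knockout. The 10 endothelial markers summed to 12.2 and 9.92, 11.97 and 15.9, and 113 and 30.2 TPM in the same order. The 9 mural markers, from the cells that wrap blood vessels, summed to 109 and 62.3, 72.0 and 70.4, and 269.6 and 156 TPM. All 3 sums were highest in the double knockout, and the endothelial sum was far higher in its replicate 1 than in replicate 2. Within the mural sum, Acta2 held 16.9 and 6.60 TPM in WT and 115 and 52.0 in the double knockout. Cspg4 held 40.8 and 38.6 TPM of it in WT and 30.7 and 46.0 in the double knockout. Which cells made these transcripts was not tested. The 8 fibroblast and dermal papilla markers summed to 312 and 145, 397 and 890, and 1923 and 1598 TPM, and the 8 immune markers to 103 and 37.4, 183 and 288, and 805 and 751 TPM. Against WT, 9 of 10 suprabasal, 9 of 10 endothelial, 7 of 9 mural, 8 of 8 fibroblast and 7 of 8 immune markers rose in the double knockout. Of all tested genes, 18.0% rose and 19.6% fell in that comparison. In the same comparison limma voom called 5 of the 10 endothelial and 6 of the 9 mural markers, and DESeq2 called 10 and 7. Melanocyte markers, 0 of 6 of which passed the test there, ran from 255 to 599 TPM over the libraries. Of 7 inner root sheath and hair shaft markers tested, 6 fell, with sums of 60.4 to 245 TPM outside the double knockout and 9.87 and 11 within it. No defining marker of the endothelial, mural or fibroblast lists was listed at 0 in any library, and the part of any of these cells in the results below was not tested. In bulk RNA, a change in the number of cells of a type and a change in RNA per cell cannot be told apart.

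**Figure D1:**
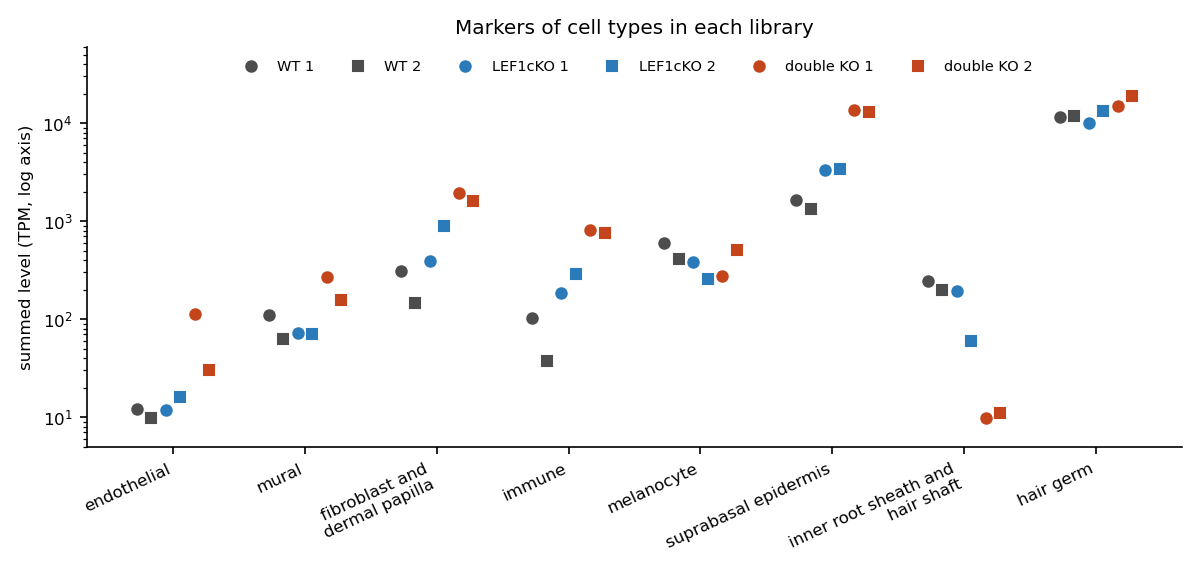
Summed level (TPM, log axis) of 8 lists of cell type markers in each library, with circles for replicate 1 and squares for replicate 2. The suprabasal, fibroblast, immune, endothelial, mural and hair germ sums were highest in the double knockout libraries, and the inner root sheath and hair shaft sums were lowest there. Most of the hair germ sum was keratin.

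When the double knockout was compared with WT, 3 of the 4 receptors rose, namely Notch1 by 1.57-fold, Notch2 by 2.42-fold and Notch3 by 3.14-fold. Dtx1, a ubiquitin ligase that binds the intracellular part of the receptor, rose 7.60-fold from a low level. None of the 3 ligands and neither Hes1 nor Hey1, the transcriptional repressors most often used as Notch readouts, passed the test. This made 4 of 10 members called, all of them rises, where 37.6% of all 19640 tested genes were called, 18.0% as rises. Among protein-coding genes, the class of all 10 members, 43.9% were called, so the share of members called was near the background. The median log2 fold change was 0.51 over the 10 members and 0.01 over all tested genes. By role, it was 1.34 for the receptors, -0.16 for the ligands and 0.15 for the targets. The test was edgeR's quasi-likelihood test with Benjamini-Hochberg adjustment over all tested genes at 0.05, and "rose" and "fell" are used only of genes that passed it.

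**Figure D2:**
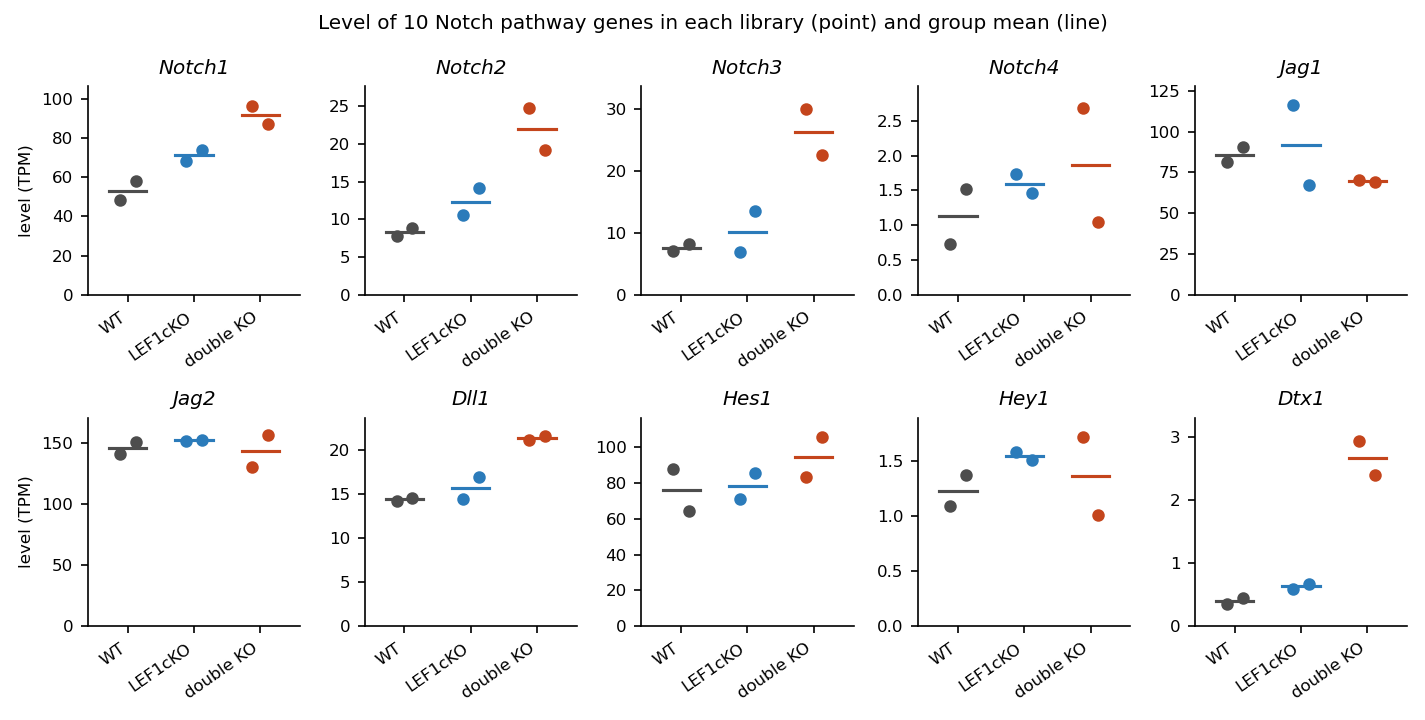
Level (TPM) of each of the 10 genes in the 6 libraries, with points for libraries, lines for the group means of 2 libraries, and an axis from 0 in each panel. For Notch1, Notch2, Notch3, Dll1 and Dtx1 both double knockout libraries lay above both WT libraries, and for Jag1 both lay below. The share of all tested genes with groups apart in this way was not counted.

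Notch1 (chr2:26457903-26516663 in GRCm38, minus strand) encodes a main receptor of the epidermis and was the most abundant receptor in every library. It stood at 48.1 and 57.9 TPM in the 2 WT libraries, 68.4 and 73.9 in the 2 LEF1cKO libraries, and 96.2 and 87.4 in the 2 double knockout libraries. The 3 groups did not overlap, with WT lowest and the double knockout highest. The double knockout exceeded WT by 0.65 ± 0.12 on the log2 scale (edgeR adjusted p = 0.0103), and 74.6% of tested genes had a lower log2 fold change. The step from WT to LEF1cKO was 0.37 ± 0.12 (adjusted p = 0.373, unadjusted 0.0205), and the step from LEF1cKO to the double knockout was 0.27 ± 0.12 (adjusted p = 0.14), so neither step passed alone. With a filter of 10 CPM (counts scaled to library size) the second step was 0.40 and passed (adjusted p = 0.0399). The call against WT did not hold when either WT replicate (adjusted p = 0.0959 and 0.0512) or double knockout replicate 1 (0.0516) was left out. An antisense transcript, Gm13568, shares 414 exon bases with Notch1 and stood at 18.9 and 17.3, 25.2 and 31.7, and 41.0 and 40.4 TPM. Another, 0610009E02Rik, shares 1068 exon bases. It stood at 2.13 and 1.89, 0.84 and 3.61, and 1.95 and 3.92 TPM in the same order of groups, which overlapped. The labels do not state that counting used strand, so reads of Notch1 and its antisense partners cannot be told apart where they overlap.

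Notch2 (chr3:98013527-98150361, plus strand) encodes a second receptor of the skin epithelium. Its level was 7.81 and 8.84 TPM in the WT libraries, 10.5 and 14.2 in those of LEF1cKO, and 24.8 and 19.3 in those of the double knockout. The groups again stood apart in the same order. The difference between the double knockout and WT was 1.27 ± 0.17 on the log2 scale (adjusted p = 0.00472), and the call was kept when any 1 of the 6 libraries was left out. Against LEF1cKO the double knockout was higher by 0.78 ± 0.16 (adjusted p = 0.0238). The latter did not hold when either WT replicate (adjusted p = 0.0503 and 0.05104), LEF1cKO replicate 1 (0.0829) or double knockout replicate 1 (0.113) was left out. LEF1cKO exceeded WT by 0.49 ± 0.16, which did not pass (adjusted p = 0.394, unadjusted 0.0233).

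Notch3 (chr17:32120820-32166852, minus strand) encodes a receptor best known from the mural cells of arteries and also made in keratinocytes. Its level was 7.05 and 8.13 TPM in the 2 WT libraries, 6.88 and 13.5 in the 2 LEF1cKO libraries, and 30.1 and 22.5 in the 2 double knockout libraries. LEF1cKO replicate 1 lay below both WT libraries and LEF1cKO replicate 2 above them, while both double knockout libraries were higher than all others. The rise in the double knockout was 1.65 ± 0.30 on the log2 scale when compared with WT (adjusted p = 0.00923), and 1.32 ± 0.29 when compared with LEF1cKO (adjusted p = 0.0266). The first call did not hold when either WT replicate (adjusted p = 0.0561 and 0.0509) or double knockout replicate 1 (0.0576) was left out. The second did not hold without WT replicate 2 (0.0507) or either double knockout replicate (0.132 and 0.0591). Of 9 mural markers, 7 rose in the double knockout against WT, while Cspg4 (log2 fold change -0.18) and Tagln (-0.22) did not pass. Pdgfrb was at 1.05 and 0.53, 0.97 and 2.34, and 9.63 and 4.97 TPM, and Rgs5 at 1.93 and 0.66, 1.59 and 2.40, and 15.2 and 3.28 TPM. Pdgfrb, a growth factor receptor, and Rgs5, a regulator of G-protein signalling, are typical of pericytes, and were picked from the list after their values had been seen. The suprabasal, fibroblast and immune sums given above were also highest in both double knockout libraries. The part of mural cells, keratinocytes or any other cells in the Notch3 values was not tested.

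Notch4 (chr17:34564268-34588503, plus strand) encodes a receptor known from endothelium and was the least abundant receptor. It stood at 0.73 and 1.52 TPM in the WT libraries, 1.73 and 1.46 in those of LEF1cKO, and 2.68 and 1.04 in those of the double knockout. The groups overlapped, and double knockout replicate 1 was the highest library. The log2 fold change of the double knockout against WT was 1.40 ± 0.62 (adjusted p = 0.125). Without double knockout replicate 2 it was 2.05 and passed (adjusted p = 0.0213), without replicate 1 it was 0.15 (adjusted p = 0.796), and with the effective length as an offset it was 0.59 (adjusted p = 0.440). The effective length that the authors' estimate gave Notch4 ranged from 1195 to 3284 bases over the libraries, and its counts and its TPM ranked the libraries differently. In 99.8% of genes the effective length was 50 bases below the length, although the labels describe paired-end reads, and what this does to TPM and to the length offset was not tested. The endothelial marker Cdh5, a junction protein of vessel lining, stood at 0.67 and 0.54, 0.90 and 1.07, and 12.3 and 2.41 TPM, also highest in double knockout replicate 1. The mural, suprabasal, fibroblast and immune sums given above were highest in that library too. The part of endothelial or any other cells in the Notch4 values was not tested.

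Added together, receptor transcripts came to 63.7 and 76.4 TPM in the 2 WT libraries, 87.6 and 103 in the 2 LEF1cKO libraries, and 153.8 and 130.2 in the 2 double knockout libraries. Notch1 made up 75.5% and 75.8% of this sum in the WT libraries, 78.1% and 71.8% in those of LEF1cKO, and 62.6% and 67.1% in those of the double knockout. The share of Notch3 was 11.1% and 10.6%, 7.86% and 13.1%, and 19.6% and 17.3% in the same order. Receptor transcripts in the double knockout were therefore higher in sum and less dominated by Notch1 than in WT, with no overlap between libraries of the 2 groups. The sums and shares are descriptions, with no test.

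**Figure D3:**
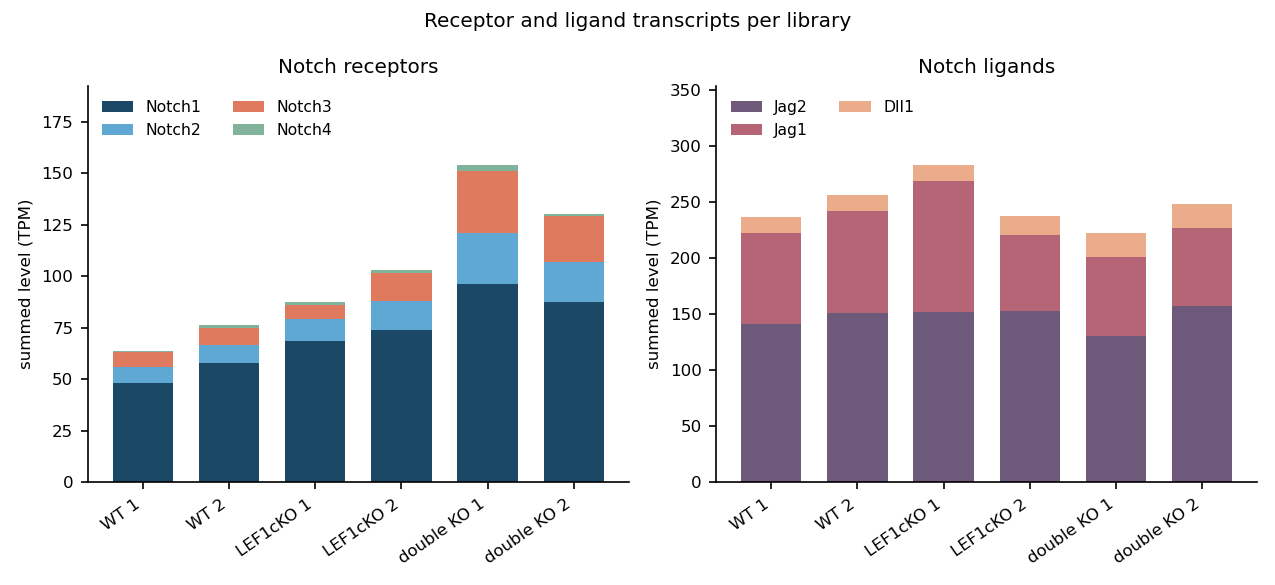
Summed level (TPM) of the 4 receptors, left, and of the 3 ligands, right, in each library, with each colour standing for 1 gene. Receptor bars reached 153.8 and 130.2 TPM in the double knockout against 63.7 and 76.4 in WT, whereas ligand bars lay between 222 and 282.5 TPM in all 6 libraries.

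None of the ligands passed edgeR's test in any comparison (0 of 3 each), though Jag1 and Dll1 passed under some alternatives given below. At an unadjusted p under 0.05, 0, 0 and 1 of the 3 passed in LEF1cKO against WT, the double knockout against WT and the double knockout against LEF1cKO, and DESeq2 and limma voom called 0 of 3 each time. Jag2 (chr12:112907819-112929776, minus strand), a Jagged ligand of basal keratinocytes, was the most abundant of the 10 genes in every library. It stood at 141 and 151 TPM in the WT libraries, 152 and 153 in those of LEF1cKO, and 131 and 157 in those of the double knockout. The WT and double knockout libraries overlapped, and the log2 fold change was -0.16 ± 0.14 (adjusted p = 0.399).

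Jag1 (chr2:137081456-137116644, minus strand) encodes the other Jagged ligand and is a known Wnt target in the hair follicle. Its level was 81.2 and 90.7 TPM in the 2 WT libraries, 116 and 67.0 in the 2 LEF1cKO libraries, and 70.3 and 69.0 in the 2 double knockout libraries. Both double knockout libraries lay below both WT libraries, and the LEF1cKO libraries lay on either side of WT. The log2 fold change of the double knockout against WT was -0.36 ± 0.24 (adjusted p = 0.285). It passed when only WT and the double knockout were fitted (adjusted p = 0.0262), and without LEF1cKO replicate 1 or 2 (adjusted p = 0.0353 and 0.0263). Against LEF1cKO it was -0.46 ± 0.24 (adjusted p = 0.202), and -0.80 without LEF1cKO replicate 2 (adjusted p = 0.00808).

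Dll1 (chr17:15367354-15376872, minus strand), a Delta-like ligand, stood at 14.3 and 14.5 TPM in the WT libraries, 14.5 and 16.9 in those of LEF1cKO, and 21.1 and 21.6 in those of the double knockout. Both double knockout libraries were above the other 4. The log2 fold change against WT was 0.37 ± 0.15 on counts and missed the threshold (adjusted p = 0.107). It passed with the effective length as an offset (0.42, adjusted p = 0.0319), with a filter of 10 CPM (0.50, adjusted p = 0.0375), and in limma on log2(TPM + 1) and log2(TPM + 0.1) (0.54 and 0.56, adjusted p = 0.0229 and 0.0209). Against LEF1cKO it passed with the filter of 10 CPM only (0.56, adjusted p = 0.0343). Ligand transcripts summed to 237 and 256 TPM in the 2 WT libraries, 282.5 and 237 in the 2 LEF1cKO libraries, and 222 and 248 in the 2 double knockout libraries. Dll1 made up 6.03% and 5.67% of this sum in WT and 9.5% and 8.70% in the double knockout.

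Among the targets, Hes1 (chr16:30064384-30067796, plus strand) encodes a repressor that Notch switches on in many tissues. It stood at 87.6 and 64.3 TPM in the WT libraries, 71.3 and 85.8 in those of LEF1cKO, and 83.5 and 106 in those of the double knockout. All 3 groups overlapped. The log2 fold change of the double knockout against WT was 0.15 ± 0.18 (adjusted p = 0.546), and that of LEF1cKO was 0.00 ± 0.18.

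Hey1 (chr3:8663359-8667256, minus strand) encodes a related repressor and was low throughout, at 1.09 and 1.37 TPM in the 2 WT libraries, 1.58 and 1.51 in the 2 LEF1cKO libraries, and 1.72 and 1.01 in the 2 double knockout libraries. The double knockout libraries lay on either side of WT, and the log2 fold change was -0.03 ± 0.34 (adjusted p = 0.947). For both genes a p over the threshold does not show that the groups had the same level.

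Dtx1 (chr5:120680202-120711927, minus strand) stood at 0.35 and 0.45 TPM in the WT libraries, 0.60 and 0.67 in those of LEF1cKO, and 2.94 and 2.40 in those of the double knockout. The groups did not overlap, in the same order as for Notch1 and Notch2. These levels rest on few reads, with 23 and 24 counts in the WT libraries and 174 and 97 in those of the double knockout. The rise in the double knockout was 2.93 ± 0.42 on the log2 scale against WT (adjusted p = 0.00572), and 96.0% of tested genes had a lower log2 fold change. Against LEF1cKO it was 2.10 ± 0.40 (adjusted p = 0.0196). The call against WT was kept when any 1 library was left out, with adjusted p up to 0.0461, and the call against LEF1cKO was lost without LEF1cKO replicate 1 or double knockout replicate 1 (adjusted p = 0.0847 and 0.0882). On the log2(TPM + 1) scale, which compresses low levels, the difference from WT was 1.39.

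In LEF1cKO against WT, 0 of 10 members passed edgeR's test, where 0.601% of all tested genes were called (rises 0.224%, falls 0.377%), and 0.385% of protein-coding genes. At an unadjusted p under 0.05 there were 2 of 10, Notch1 and Notch2, and 1882 of all 19640 genes, while DESeq2 and limma voom called 0 of 10. The median log2 fold change of the members was 0.17, and 8 of 10 were above 0. Between LEF1cKO and the double knockout, 3 of 10 rose (Notch2, Notch3 and Dtx1), where 25.2% of all tested genes were called (11.2% rose) and 30.4% of protein-coding genes. The median there was 0.36 for the members and 0.01 for all genes. The 3 comparisons share libraries, so their values for a gene are not independent of each other.

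**Figure D4:**
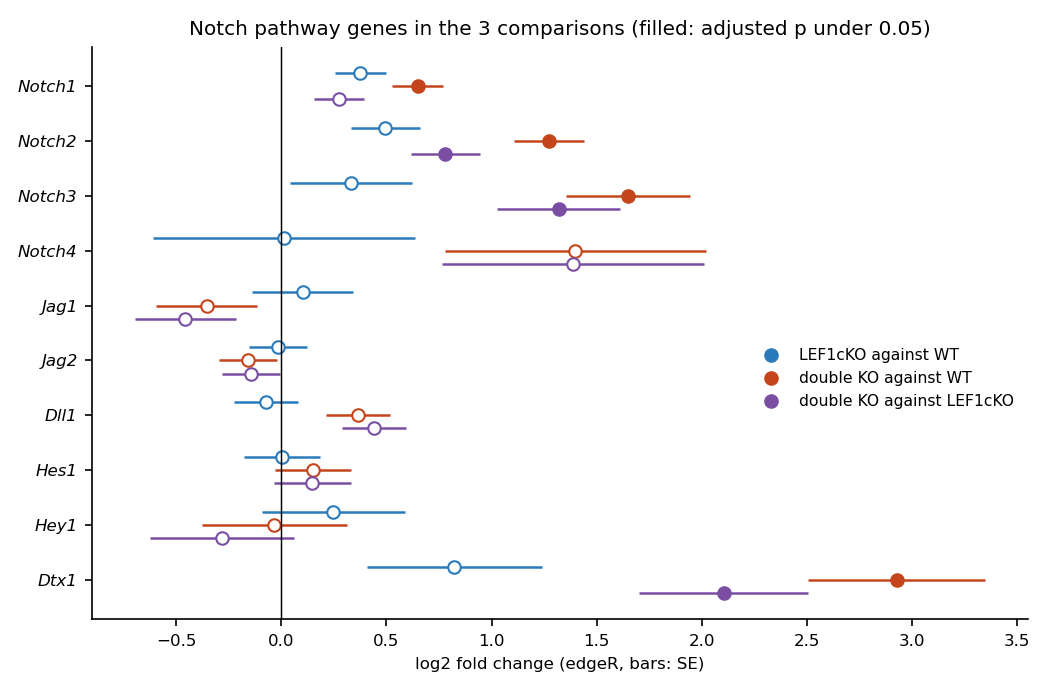
Log2 fold change of each gene in the 3 comparisons, with bars for the standard error and filled points for an adjusted p under 0.05. Filled points are Notch1, Notch2, Notch3 and Dtx1 in the double knockout against WT and Notch2, Notch3 and Dtx1 in the double knockout against LEF1cKO.

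The order of levels shows how the balance of receptors, ligands and targets differed. In WT it ran from Jag2 (146 ± 7.16 TPM, SD, n = 2) through Jag1 (85.9 ± 6.70), Hes1 (75.9 ± 16.4), Notch1 (53.0 ± 6.88), Dll1 (14.4 ± 0.191), Notch2 (8.33 ± 0.728), Notch3 (7.59 ± 0.764), Hey1 (1.23 ± 0.198) and Notch4 (1.13 ± 0.559) to Dtx1 (0.40 ± 0.0707). The libraries of Jag1 and Hes1 overlapped, as did those of Notch2 and Notch3 and those of Hey1 and Notch4. LEF1cKO had the same order down to Notch3, with Jag1, Hes1 and Notch1 overlapping in turn, Notch2 and Notch3 overlapping, Notch4 and Hey1 overlapping, and Dtx1 lowest at 0.635 ± 0.0495. In the double knockout Notch1 (91.8 ± 6.26) stood above Jag1 (69.6 ± 0.926) with no overlap, and Notch3 (26.3 ± 5.35) overlapped with Notch2 (22.0 ± 3.92), which overlapped with Dll1 (21.3 ± 0.339). At the bottom, Notch4 (1.86 ± 1.16) overlapped with both Dtx1 (2.67 ± 0.382) and Hey1 (1.37 ± 0.502). Notch3 did not overlap with Dll1, nor Dtx1 with Hey1. Hes1 (94.7 ± 15.8) overlapped with Notch1 there.

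Among 50 other genes of the pathway, 49 had enough reads to be tested. Between WT and the double knockout, 7 rose and 9 fell, with a median log2 fold change of -0.02 (the same with Hes5 at its bound, below), beside 18.0% rises and 19.6% falls among all tested genes. The comparison of LEF1cKO with WT had 0 of 49 past edgeR's test (2 at an unadjusted p under 0.05, and 0 by DESeq2 and limma voom), and in the double knockout against LEF1cKO 3 rose and 6 fell, where 11.2% and 14.1% of all tested genes did. Lists are given below by counts in the double knockout against WT, with the genes that passed, and their falls, rises and values in parentheses are log2 fold changes in that comparison. Rbpj and Nrarp, which did not pass, were added after their values had been seen. Of the 16 calls, 15 were lost without WT replicate 1, 14 without WT replicate 2, 10 and 6 without double knockout replicate 1 and 2, and 1 without either LEF1cKO replicate.

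Of 3 other ligands tested, 2 rose and 0 fell. Dlk2, a non-canonical ligand, stood at 7.29 and 8.07 TPM in the 2 WT libraries, 3.80 and 14.0 in the 2 LEF1cKO libraries, and 23.8 and 41.2 in the 2 double knockout libraries (log2 fold change against WT 1.95, adjusted p = 0.0413). Dll4, the Delta-like ligand of endothelial tip cells, was at 0.28 and 0.11, 0.07 and 0.20, and 2.80 and 0.55 TPM (2.94, adjusted p = 0.0465), and like Cdh5 it was highest in double knockout replicate 1. The call of Dll4 was kept in 1 and that of Dlk2 in 2 of the 6 fits that each left out 1 library. Outside those 6 fits, the call of Dll4 was also lost in limma voom, on both TPM scales and with a block for replicate number. It was lost as well when only WT and the double knockout were fitted (adjusted p = 0.0502 to 0.101 over these alternatives). The call of Dlk2 was lost on log2(TPM + 0.1) (adjusted p = 0.0504).

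Genes of receptor cleavage gave 2 rises and 1 fall among 9. Aph1b (0.70, adjusted p = 0.00893) and nicastrin, Ncstn (0.31, adjusted p = 0.0359), subunits of the gamma-secretase complex that makes the final cut, rose. Aph1b has a close copy in the mouse, Aph1c, and reads that fit both were split by the authors' model, so its value is uncertain. Adam10, the protease that makes the first ligand-dependent cut, fell by 0.40 (adjusted p = 0.0225). The call of Ncstn was lost with no filter (adjusted p = 0.0923), and that of Adam10 with the filter of 10 CPM (0.0709) and on both TPM scales (0.118 and 0.124).

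Of 5 enzymes that put sugars on the receptors, 1 rose and 1 fell. Mfng, a Fringe enzyme that alters which ligands a receptor answers, was at 0.26 and 0.24, 0.13 and 0.98, and 3.71 and 1.02 TPM (3.27 ± 0.97, adjusted p = 0.0421), again highest in double knockout replicate 1. Poglut1, an O-glucosyltransferase of the receptor's EGF repeats, fell by 0.45 (adjusted p = 0.0293). The call of Mfng was lost in limma voom, with the length offset and on both TPM scales (adjusted p = 0.0556 to 0.0726), and that of Poglut1 by library size, with the filter of 10 CPM and on both TPM scales (0.0585 to 0.114). Of the 4 ubiquitin ligases that act on ligands, 0 passed (1 at an unadjusted p under 0.05, and 0 by DESeq2 and limma voom), with Mib1 at -0.07 (adjusted p = 0.630) and Mib2 at 0.34 (adjusted p = 0.0927). Mib2 passed with the filter of 10 CPM (0.48) and on both TPM scales (0.45 and 0.46), with adjusted p = 0.0287 to 0.0320.

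In the nuclear complex 1 of 8 genes passed, Snw1, a coactivator and splicing factor that fell by 0.50 (adjusted p = 0.0364). The call was lost with the filter of 10 CPM and on both TPM scales (adjusted p = 0.0545 to 0.0572). Rbpj, the DNA-binding partner of the receptor, ranged from 25.1 to 31.9 TPM over the 6 libraries with a log2 fold change of 0.04 (adjusted p = 0.832). Corepressors gave 3 falls and 0 rises among 6, beside 19.6% falls and 18.0% rises among all tested genes. Ctbp2 fell from 61.9 and 61.0 TPM in WT, with 68.7 and 53.8 in LEF1cKO, to 33.1 and 31.5 in the double knockout (-1.07 ± 0.16, adjusted p = 0.00613), and its call was kept in all 6 fits that left out 1 library. Hdac1, a histone deacetylase, fell by 0.74 (adjusted p = 0.0088) and Ctbp1, a relative of Ctbp2, fell by 0.49 (adjusted p = 0.0128).

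Of 9 genes of receptor turnover and inhibition, 2 rose and 0 fell. Dtx2, a relative of Dtx1, rose from 15.9 and 18.3 TPM in WT, with 16.7 and 20.9 in LEF1cKO, to 33.6 and 31.0 in the double knockout (0.79, adjusted p = 0.00626), a call lost in 1 of 6 fits that left out 1 library. Numbl, an adaptor related to the Notch inhibitor Numb, rose by 0.53 (adjusted p = 0.0400), a call lost with the length offset (0.0641). Nrarp, a feedback inhibitor switched on by Notch in many tissues, ranged from 53.9 to 76.5 TPM with a log2 fold change of -0.02 (adjusted p = 0.898).

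Of 5 other Hes and Hey genes, 3 fell and 0 rose, where 19.6% of all tested genes fell and 18.0% rose. Hes6 fell by 0.84 (adjusted p = 0.0222), from 14.1 and 13.4 TPM in WT to 7.26 and 9.54 in the double knockout. Heyl was at 2.29 and 2.0 TPM in WT and 1.15 and 0.55 in the double knockout (-1.29, adjusted p = 0.0366). Counts of Hes5 were 14 and 21 in the WT libraries, 12 and 6 in those of LEF1cKO and 0 in both of the double knockout (adjusted p = 0.0140), which is at least 4.15-fold lower when each library with 0 is set at a floor of 3 counts. The calls of Hes5, Hes6 and Heyl were each kept in 3 of 6 fits that left out 1 library, and that of Heyl was lost on log2(TPM + 0.1) (adjusted p = 0.0522). In the same comparison Notch1, Notch2, Notch3 and Dtx1 rose, and Hes1, Hey1 and Nrarp did not pass the test, which does not show that their levels were equal. Whether Notch signalling differed between the groups was not tested.

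**Figure D5:**
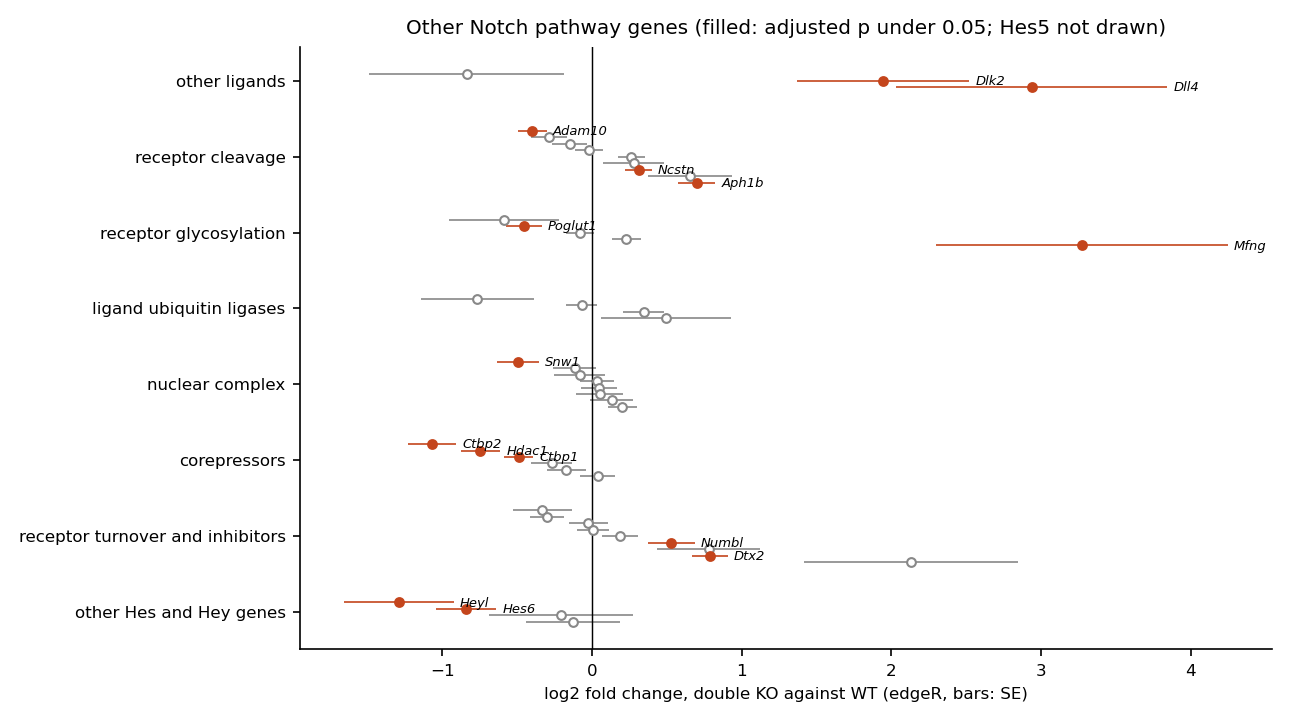
Log2 fold change in the double knockout against WT of the other pathway genes by list, with bars for the standard error. Filled points are genes with an adjusted p under 0.05, which were 7 rises and 9 falls of 49, and of the falls Hes5 is not drawn because its fitted value against libraries at 0 has no meaning.

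The genes most like the leading receptor, ligand and target were found by the Pearson correlation of log2 CPM over the 6 libraries, among 10445 genes. These are descriptions over 6 points that share the group differences. Notch1 was most like Gltscr1l (r = 0.990), Sipa1l3 (0.986) and AI661453 (0.986), and 83 genes reached 0.95. Sipa1l3 read 37.0 and 44.9 TPM in the WT libraries, 49.7 and 59.3 in those of LEF1cKO, and 70.5 and 68.6 in those of the double knockout. For Jag2 the closest were Pdcd7 (0.994), Rps24 (0.986) and Mkrn1 (0.983), with 31 genes at 0.95 or more. For Hes1 they were Mat2b (0.944), Large (0.939) and Stx16 (0.936), and 0 genes reached 0.95.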

How the data were processed

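RNA was sequenced from 6 libraries in 3 groups of 2, grouped by sample title. Reads were processed with RSEM 1.2.30 and Bowtie2 2.2.9 on the mm10 build, per the submitters' processing notes. Which annotation was used is not stated in those notes. The deposited expected counts are RSEM's estimates of reads per gene, unnormalized, in which a read that matches several genes is divided among them. The deposited TPM values are RSEM's levels scaled by effective length and library, per the file headers. FPKM values were also deposited by the authors and were not used. A deposited TPM table of the series held the same values (largest difference 0). Another 92 spike-in rows had 0 counts and were dropped. Of 46517 genes, 46005 were matched by identifier to GENCODE M21 (GRCm38).

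Rounded to whole numbers, the expected counts went into edgeR 4.0.16 under R 4.3.3 (TMM factors 0.962 to 1.04, filterByExpr by group, quasi-likelihood F test, Benjamini-Hochberg adjustment over 19640 genes at 0.05). 1 fit held all 6 libraries and had 3 residual degrees of freedom. The test was first tested on simulated data, which held far fewer changed genes than were called in the double knockout comparisons. No result given here rests on that check. Depth ran from 40480694 to 63220022 expected counts, and a floor of 3 counts is 0.0475 to 0.0741 CPM (counts scaled to library size), which covers counting error only. Replicates differed by more than sampling noise in every group.

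The members and lists were chosen with earlier results of these data known. All members are named. From the other pathway lists, 2 genes are not reported here and were left out of the lists' counts, after values had been seen. Of each other pathway list, up to 4 genes past the threshold in the double knockout against WT are named, or the 2 most abundant. Likeness used genes with a mean of at least 5 TPM. Each result was recomputed in DESeq2 1.42.0 and in limma 3.58.1 (voom on counts, or log2 TPM with 1 or 0.1 added), and in edgeR with RLE factors, unscaled library sizes, an offset for effective length, every gene kept, only genes at 10 CPM in 2 libraries, a fit of just the pair of groups, a block for replicate number, and each library left out.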

Additional observations from a re-analysis of the deposited data

How the results depend on the processing

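With 2 libraries a group, the precision of every value is limited by their number, and low genes (Notch4, Hey1, Dtx1, Hes5) also by counting error. The number of genes called in LEF1cKO against WT, 118 in edgeR, was 422 with no filter and 602 in DESeq2, and 78 to 138 when 1 library was left out. The share of rises among them was 37.3%, against 51.2% with no filter, 59% in DESeq2, 24.1% in limma voom, 17.8% on log2(TPM + 1) and 23.7% on log2(TPM + 0.1). In the double knockout against WT, 7389 genes were called, and 1968 to 8333 with 1 library left out (1968 without WT replicate 2). Rises were 47.9% of these calls, and 57.3% on log2(TPM + 1). In the double knockout against LEF1cKO, 4952 genes were called, 2585 when only the 2 groups were fitted, and 1 to 5973 with 1 library left out (1 without double knockout replicate 1). The cause of these shifts was not tested, beyond the change in samples or genes fitted. The median of all genes in the double knockout against WT was 0.13 on log2(TPM + 0.1) against 0.01 on counts.

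The number of members called was 0 in LEF1cKO against WT under all alternatives run. It was 4 in the double knockout against WT, 4 or 5 under the alternatives that keep all libraries, and 2 to 5 with 1 library left out (2 without WT replicate 1, WT replicate 2 or double knockout replicate 1). Between LEF1cKO and the double knockout it was 3, and 0 to 4 with 1 library left out (0 without double knockout replicate 1, 1 without WT replicate 2 or LEF1cKO replicate 1). Without LEF1cKO replicate 1, the library with Y-linked reads, it was 5 and 1. The filter of 10 CPM left 7 members, without Notch4, Hey1 and Dtx1. Notch1, Notch2 and Notch3 were called in the double knockout against WT under every alternative that keeps all libraries, as was Dtx1 wherever it was tested.

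With the replicate block, 80, 6435 and 3635 genes and 0, 4 and 3 members were called in the 3 comparisons in the order above. In the double knockout against WT the block ended the calls of Mfng (adjusted p = 0.0684), Dll4 (0.0573), Snw1 (0.0614) and Ncstn (0.0714). Deviations of replicate 1 from the group mean were hardly correlated between groups (-0.04, 0.06 and -0.03). Such values cannot exclude that libraries with the same replicate number shared a day or litter.

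Outside the fits with 1 library left out, the values that changed sign were as follows, and 0 of them passed the test. In LEF1cKO against WT, Notch4 was -0.045 with the replicate block, Jag2 was 0.011 by library size and 0.062 on both TPM scales, Dll1 was 0.042 with the length offset and 0.11 and 0.12 on the TPM scales, and Hes1 was -0.0061 with RLE factors, -0.0064 in DESeq2 and -0.032 with the length offset. In the double knockout against WT, Hey1 was 0.044 by library size, 0.0041 with the length offset, and 0.071 and 0.10 on the TPM scales, and Mib1 was 0.0067 by library size, 0.068 with the filter of 10 CPM, and 0.081 and 0.083 on the TPM scales.

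Leaving out 1 library leaves its group with a single library, whose spread is then taken from the others. The ranges that crossed 0 in LEF1cKO against WT were -0.17 to 0.70 for Notch3, -0.21 to 0.28 for Notch4, -0.33 to 0.43 for Jag1, -0.062 to 0.041 for Jag2, -0.18 to 0.028 for Dll1 and -0.20 to 0.24 for Hes1. In the double knockout against WT they were -0.34 to 0.0095 for Jag2, -0.048 to 0.40 for Hes1, -0.47 to 0.30 for Hey1 and -0.15 to 0.014 for Mib1, and against LEF1cKO -0.32 to 0.015 for Jag2, -0.038 to 0.32 for Hes1, -0.72 to 0.054 for Hey1 and -0.71 to 0.089 for Lef1.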
